A study of Mus musculus with 12 samples.

Results

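The interferon regulatory factor (IRF) family was followed through 12 RNA-seq libraries of mouse bone marrow-derived macrophages (BMDMs). Its 8 genes considered here, Irf1, Irf2, Irf3, Irf4, Irf5, Irf7, Irf8 and Irf9, were taken by symbol from the 23997 gene rows of each library, and all 8 symbols were found. Bone marrow of C57BL/6 male mice aged 8 to 10 weeks was cultured with macrophage colony-stimulating factor (M-CSF, 10 ng/ml) for 7 days. Cells of WT mice and of Pim1-/- mice, which lack the serine/threonine kinase Pim1 after CRISPR/Cas9 editing, were left untreated or were given lipopolysaccharide (LPS), the TLR4 ligand from bacterial cell walls, at 100 ng/ml for 4 h. The 4 groups, WT untreated, Pim1-/- untreated, WT with LPS and Pim1-/- with LPS, held 3 libraries each, and M-CSF and strain were common to all of them. The labels call the libraries of a group replicates without saying whether they came from separate mice or cultures, so the p-values measure the spread between these libraries, which may be technical.

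IRF proteins share an N-terminal DNA-binding domain that recognizes GAAA repeats in interferon-stimulated response elements (ISREs). IRF3 and IRF7 wait in the cytoplasm until TBK1 or IKKε phosphorylates them downstream of TRIF, MAVS or STING, after which they enter the nucleus and switch on Ifnb1. Secreted interferon then acts through its receptor, JAK1 and TYK2 to assemble ISGF3, a complex that holds STAT2 and IRF9. IRF1 is an activator induced by interferon and NF-κB, and IRF2 binds many of the same elements as its antagonist. IRF5 serves the MyD88 branch and inflammatory cytokine genes, whereas IRF4 and IRF8 bind DNA weakly alone and act with partners such as PU.1 (Spi1) in B cells, dendritic cells and macrophages.

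Expression was deposited as 1 value per gene and library and was read as FPKM, fragments per kilobase of transcript scaled to the fragments of the library, which allows levels of different genes to be set side by side within a library. Depth is not recorded in these values. From low values of single-transcript genes, which fell on multiples of the value of 1 fragment, it was estimated at 32800000 to 42100000 fragments per library, with little difference between groups. Summed FPKM differed far more, at 452511 to 489710 in untreated libraries, 713307 to 743912 in Pim1-/- libraries with LPS and 837585 to 849323 in WT libraries with LPS. A scaling to the estimated fragments was therefore added after the data were seen, and its values are given where it turns a direction or a call of a member, or moves a member's difference markedly. Differences were fitted with limma on log2(FPKM + 1) over 10581 genes (those at 1 FPKM or more in 3 or more libraries), a scale that understates changes of genes with low values. A gene was called when it differed by more than 2-fold, had p under 0.05 and had an FDR (Benjamini-Hochberg) under 0.1, and an FDR under 0.1 with no fold threshold was the second rule. Rose, fell, higher and lower are used below for differences that passed the second rule. With 3 libraries against 3, an exact permutation test of a single value cannot give a p under 0.1, so none was run.

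The cultures carried macrophage markers, and these moved with genotype. The summed FPKM of 7 markers, mostly Lyz2, was 27690 to 29730 in untreated WT, 14220 to 15150 in untreated Pim1-/-, 28940 to 29500 in WT with LPS and 14250 to 16020 in Pim1-/- libraries with LPS. All 7 were lower in Pim1-/- cells in both treatments (6 of them with LPS under quantile normalization or per estimated fragment), and Csf1r, Fcgr1 and Mertk were called in each. All 10 listed cell cycle genes were called higher in untreated Pim1-/- cells and 8 of them with LPS. With LPS Mki67 was lower, at 26.2 ± 0.173 FPKM against 28.6 ± 0.924 FPKM in WT, though all 10 were higher per estimated fragment. Their sums were 128.9 to 143.3 FPKM in untreated WT, 788.1 to 872.1 in untreated Pim1-/-, 349.6 to 353.6 in WT with LPS and 663.9 to 749.8 in Pim1-/- libraries with LPS. Pcna gave the most to these sums, with means of 109.9 FPKM in untreated WT and 313.1 FPKM in WT with LPS. In WT cells LPS lowered 8 of the 10 at an FDR under 0.1 and raised 2, Pcna and Mki67. Over all genes tested, 44.2% were lower in Pim1-/- cells without treatment and 43.4% with LPS at an FDR under 0.1, and 4.4% and 3.51% were called higher. Markers of plasmacytoid dendritic cells (5 listed), conventional dendritic cells (6), B and plasma cells (6), T and NK cells (6), neutrophils (4 of 5 in the files) and stromal cells (4) stayed low, with sums per library of at most 3.12, 2.18, 1.57, 0.652, 7.67 and 8.42 FPKM. Among the defining markers Cd3e, Cd3g, Cd8a, Ncr1, Pax5 and Ly6d were at 0 in every library. Cox6a2, the single tested gene of the plasmacytoid list, was called higher in Pim1-/- cells in both treatments, at 2.42 ± 0.275 against 0.371 ± 0.0949 FPKM without LPS. It passed the filter on low values through the Pim1-/- libraries alone, which favours such a difference, so its values are a description. Siglech, a defining gene of the same list, was too low to be tested and lay the other way, with 0.0534 ± 0.0248 FPKM in Pim1-/- against 0.753 ± 0.109 FPKM in WT libraries without LPS. The neutrophil gene S100a9 and the stromal gene Pdgfrb were called lower in Pim1-/- cells with LPS, with log2 fold changes of −1.17 and −1.36. S100a9 passed the filter through the WT libraries with LPS alone, which favours a lower value in Pim1-/- cells, so its value is a description. The part of the macrophage and cell cycle differences in the genotype results below was not tested, and in bulk RNA fewer cells of a type and less RNA per cell cannot be told apart. Pim1 itself was at 22.9 ± 1.80 FPKM in untreated WT, 8.73 ± 0.752 FPKM in untreated Pim1-/-, 645.4 ± 17.8 FPKM in WT with LPS and 218.9 ± 15.6 FPKM in Pim1-/- with LPS (SD, n = 3 each). These are single values for the whole gene, and which part of it the Pim1-/- reads came from was not tested.

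The 8 genes lie on 6 chromosomes. On the mouse assembly GRCm38, with gene bounds from GENCODE M21, Irf1 occupies chr11:53770014-53778374, Irf2 chr8:46739732-46847458, Irf3 chr7:44997648-45002848, Irf4 chr13:30749226-30766976, Irf5 chr6:29526625-29541871, Irf8 chr8:120736358-120756694 and Irf9 chr14:55603571-55610030, all on the + strand, while Irf7 occupies chr7:141262706-141266481 on the − strand. Irf3, Irf5 and Irf7 overlap Bcl2l12, Tnpo3 and Phrf1 on the opposite strand. The library kit keeps strand, but whether the counting used it is not given in the sources used here. Irf9 overlaps Rnf31 on its own strand, and since Rnf31 ranged from 5.20 to 98.9 FPKM over the libraries, the values of Irf9 are uncertain to the extent that shared reads were split.

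RefSeq promoter windows, from 250 bases before to 50 bases after a start site on GRCm38.p6, were present for all 8 genes, 11 windows in total. They were searched on both strands for the ISRE core GAAANNGAAA, for the interferon-γ-activated (GAS) element TTCNNNGAA, and for the NF-κB site. In 32851 windows of all genes, the ISRE core occurred in 3.44%, the GAS in 8.3% and the NF-κB site in 5.8%. Irf1, Irf2 and Irf8 were the members with any match, and their 250 upstream bases are shown so that these letters can be read beside the values of the 3 genes. Capitals mark the matches, which do not overlap one another. In Irf1 (chr11:53769764-53770013, + strand) they are a GAS from −90 to −82 and an NF-κB site from −13 to −4 relative to the start. Irf2 (chr8:46739495-46739744, + strand) has an ISRE core from −241 to −232, a GAS from −224 to −216 and an NF-κB site from −17 to −8. Irf8 (chr8:120736108-120736357, + strand) has a GAS from −171 to −163 and another from −153 to −145.
Irf1: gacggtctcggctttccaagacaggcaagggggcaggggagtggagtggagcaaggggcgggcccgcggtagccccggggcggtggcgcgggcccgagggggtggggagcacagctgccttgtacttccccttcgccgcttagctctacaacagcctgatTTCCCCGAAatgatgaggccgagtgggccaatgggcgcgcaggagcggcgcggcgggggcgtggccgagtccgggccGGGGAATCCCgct
Irf2: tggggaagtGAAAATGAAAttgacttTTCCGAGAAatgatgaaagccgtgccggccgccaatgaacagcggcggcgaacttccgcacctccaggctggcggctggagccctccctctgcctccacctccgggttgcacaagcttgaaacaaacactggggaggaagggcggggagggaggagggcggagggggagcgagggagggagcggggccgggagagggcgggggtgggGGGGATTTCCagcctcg
Irf8: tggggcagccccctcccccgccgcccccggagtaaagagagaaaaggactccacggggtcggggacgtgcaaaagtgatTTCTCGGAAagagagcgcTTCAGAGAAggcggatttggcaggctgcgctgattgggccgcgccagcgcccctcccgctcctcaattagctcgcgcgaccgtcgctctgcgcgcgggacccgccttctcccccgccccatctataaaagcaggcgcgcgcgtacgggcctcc
A match describes the letters and is not a measured binding site. The windows of Irf3, Irf4, Irf5, Irf7 and Irf9 held no match to these 3 patterns, which says only that these letters are not in them.

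In untreated WT BMDMs the family summed to 275.8 ± 3.07 FPKM (SD, n = 3), and Irf5 and Irf8 made up most of it. Irf5 held 31.3 ± 0.399% and Irf8 30.5 ± 0.482% of the sum (SD, n = 3), and their ranges over the libraries overlapped. Irf1 followed with 12.3 ± 0.436%, then Irf2 with 8.40 ± 0.161%, and Irf3 and Irf9, which overlapped each other, with 6.92 ± 0.291% and 6.85 ± 0.123%. Irf7 and Irf4 were lowest. The untreated Pim1-/- family summed to 155.1 ± 7.00 FPKM, and there Irf5, at 39.7 ± 0.713%, stood clear of Irf8, at 22.6 ± 0.249%. Irf3 came next there at 10.9 ± 0.163%, above Irf1 at 8.67 ± 0.205%. The ratio of Irf8 to Irf5 within a library was 0.970 to 0.977 in untreated WT and 0.552 to 0.584 in untreated Pim1-/- cells.

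LPS replaced the leading members. The family sum was 2280 ± 40.4 FPKM in WT but 1459 ± 23.9 FPKM in Pim1-/- cells with LPS (SD, n = 3 each). In WT cells Irf1 held 38.3 ± 0.625% and Irf7 35.9 ± 0.448%, followed by Irf8 at 9.90 ± 0.114% and Irf5 at 8.70 ± 0.133%, and no neighbouring ranks overlapped. In Pim1-/- cells Irf1 held 46.4 ± 1.00%, Irf7 27.1 ± 0.684% and Irf5 13.1 ± 0.334%. Irf8 came down to 4.00 ± 0.172%, among Irf9 and Irf2, and overlapped both. Because shares are taken within a library, they do not depend on a scaling that applies 1 factor to the whole library. Quantile normalization is not such a scaling, and shares were not taken under it.

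**Figure D1:**
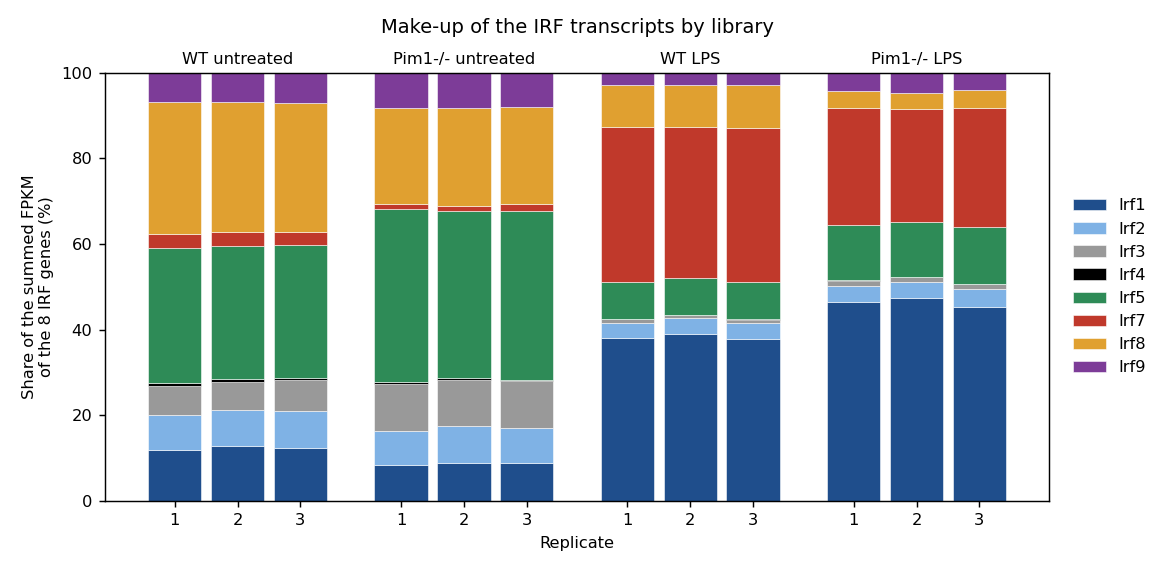
Each bar is 1 library and shows the share (%) of the summed FPKM of the 8 IRF genes held by each gene, with 3 replicates per group. Irf5 and Irf8 fill most of the untreated bars, Irf1 and Irf7 most of the LPS bars, and the Irf8 share is 9.90% in WT and 4.00% in Pim1-/- cells with LPS.

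Counted over the family, LPS in WT cells called 6 members higher (Irf1, Irf2, Irf5, Irf7, Irf8 and Irf9) and Irf4 lower, where 20.1% of the 10581 genes tested were called higher and 14.7% lower. LPS in Pim1-/- cells called 5 members higher and 0 lower, against 14.6% and 10.4% of all genes. Irf4 and Irf8 were called in WT but not in Pim1-/- cells, and whether their responses differ between genotypes rests on the test of the difference given below. Between genotypes without treatment, 3 members were called lower in Pim1-/- cells (Irf1, Irf7 and Irf8) and 0 higher, against 3.37% and 4.4% of all genes. With LPS, 2 were called lower (Irf7 and Irf8) and 0 higher, against 5.15% and 3.51%. These comparisons share their groups, so their values are set side by side and not as independent support for each other.

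Without the fold threshold, all 8 members were lower in untreated Pim1-/- cells at an FDR under 0.1, where 44.2% of all genes were lower and 34.6% higher. Irf3 left this list under the scaling to estimated fragments, with a log2 fold change of −0.06 (adjusted p = 0.313, limma). Groups did not overlap for any of the 8, which held for 78.4% of all genes. With LPS, 4 members were lower, Irf4 was higher, and Irf3, Irf5 and Irf9 did not pass, while 43.4% of all genes were lower and 37.6% higher. Per estimated fragment, Irf2, Irf7 and Irf8 were lower, Irf3, Irf4, Irf5 and Irf9 were higher and Irf1 did not pass. In that scaling the median log2 fold change of all genes with LPS was itself 0.17. Relative to this median Irf3, Irf4, Irf5 and Irf9 were at 0.15, 0.07, 0.06 and 0.10, close to all genes. The median log2 fold change of the 8 between genotypes was −0.78 without treatment and −0.21 with LPS, beside −0.05 and −0.03 over all genes tested. Irf4 passed the filter on low values through the untreated WT libraries alone, so it had to differ between groups and lends no support to these counts and medians.

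**Figure D2:**
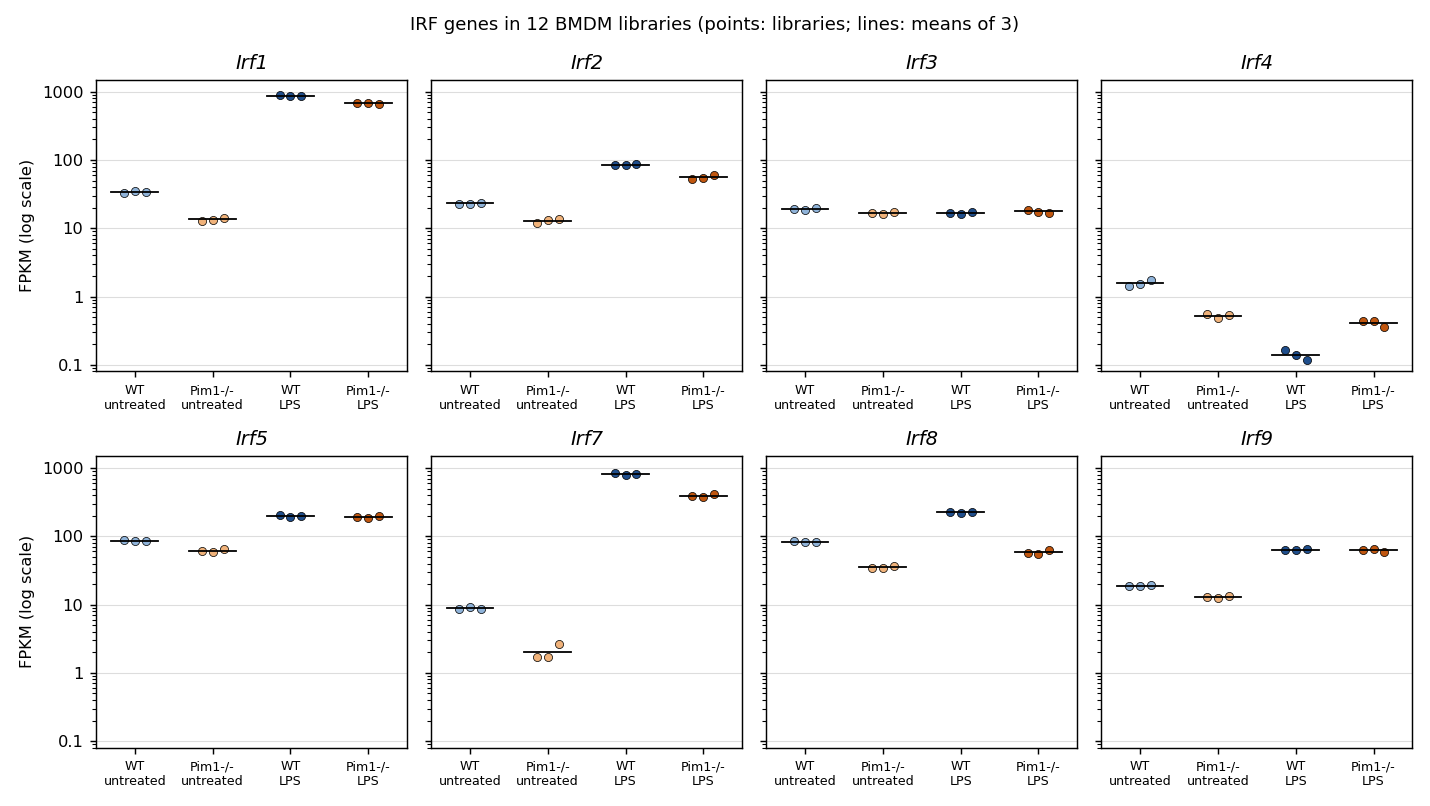
Points are FPKM values of single libraries on a log axis shared by the 8 panels, and lines are the means of the 3 libraries of a group. Irf3 stays between 16.0 and 20.1 FPKM throughout, Irf1 and Irf7 climb steeply with LPS, and the Pim1-/- points of Irf8 lie below the WT points of the same treatment.

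Irf3 encodes the factor that is present before stimulation and is switched on by phosphorylation. Its transcript was the steadiest of the family, at 19.0, 18.2 and 20.1 FPKM in untreated WT and 16.9, 16.0 and 17.6 FPKM in untreated Pim1-/- libraries. With LPS it was at 16.8, 16.4 and 17.5 FPKM in WT and 18.7, 17.4 and 16.7 FPKM in Pim1-/- libraries, which overlap. The log2 fold change between genotypes was −0.17 without treatment (standard error 0.05, adjusted p = 0.0088, limma) and 0.05 with LPS (95% interval −0.06 to 0.17, adjusted p = 0.356). The latter was 0.17 (adjusted p = 0.0187) under quantile normalization, higher in Pim1-/- cells. Per estimated fragment it was 0.32 (adjusted p = 6.77e-05), also higher, where the median of all genes was 0.17. In WT cells Irf3 fell with LPS, with a log2 fold change of −0.17 (adjusted p = 0.00804), which was −0.53 under quantile normalization and −0.95 per estimated fragment. In Pim1-/- cells the change was 0.06 (adjusted p = 0.309), and it was −0.20 under quantile normalization and −0.57 under the scaling to estimated fragments, where the median of all genes was −0.57 as well.

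Irf7, the inducible counterpart of IRF3 and a strong inducer of type I interferon genes, showed the steepest rise. It was at 8.58, 9.26 and 8.65 FPKM in untreated WT and at 1.74, 1.72 and 2.61 FPKM in untreated Pim1-/- libraries. With LPS the values were 840, 792 and 821 FPKM in WT and 396, 379 and 412 FPKM in Pim1-/- libraries. All Pim1-/- values lay below the WT values of the same treatment. The mean in Pim1-/- cells was 22.9% of WT without treatment and 48.4% of WT with LPS, log2 fold changes of −1.71 (standard error 0.08, adjusted p = 4.29e-11, limma) and −1.05 (standard error 0.08, adjusted p = 1.31e-08). The second was no longer past 2-fold under quantile normalization (−0.79) or with the scaling to estimated fragments (−0.75), and passed FDR in both. LPS raised Irf7 by a ratio of means of 92.6 in WT and 195.6 in Pim1-/- cells. On the log2 scale the response was larger in Pim1-/- cells by 0.67 (adjusted p = 0.000136), and by 1.05 with a pseudocount of 0.1. Pim1-/- replicate 3 without treatment, at 2.61 FPKM, stood above the other two and gave the widest spread of any member, by coefficient of variation.

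The balance of Irf7 to Irf3 turned over with LPS. Within a library the ratio was 0.464 ± 0.0400 in untreated WT and 0.119 ± 0.0250 in untreated Pim1-/- cells, and 48.4 ± 1.53 and 22.5 ± 1.86 with LPS (SD, n = 3 each). Irf3 thus exceeded Irf7 in all 6 untreated libraries and Irf7 exceeded Irf3 in all 6 with LPS.

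Irf9 supplies the DNA-binding subunit of ISGF3. It was at 18.7, 18.8 and 19.3 FPKM in untreated WT and at 12.7, 12.4 and 13.1 FPKM in untreated Pim1-/- libraries, with a log2 fold change of −0.53 (adjusted p = 2.76e-08, limma, standard error 0.04). With LPS the genotypes met, at 63.9, 62.8 and 64.4 FPKM in WT and 63.0, 66.4 and 59.9 FPKM in Pim1-/- libraries. That difference was −0.01 (95% interval −0.11 to 0.08, adjusted p = 0.769), 0.021 without Pim1-/- replicate 3, 0.23 under quantile normalization and 0.27 under the scaling to estimated fragments. LPS raised Irf9 on the log2 scale by 1.70 in WT and by 2.22 in Pim1-/- cells, a difference in response of 0.52 (adjusted p = 3.24e-06). Rnf31, with which Irf9 overlaps, differed between genotypes with LPS by −0.98.

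Irf1 and Irf2 act on shared elements in opposite directions. Irf1 was at 33.0, 34.7 and 34.2 FPKM in untreated WT and at 12.9, 13.2 and 14.2 FPKM in untreated Pim1-/- libraries, a log2 fold change of −1.28 (adjusted p = 2.42e-13, limma, standard error 0.04). With LPS it was the most abundant member in both genotypes, at 882, 873 and 861 FPKM in WT and 677, 679 and 672 FPKM in Pim1-/- libraries. There the groups were also apart, but the log2 fold change was −0.37 (adjusted p = 6.01e-07), and −0.08 (adjusted p = 0.101) under the scaling to estimated fragments. The rise with LPS was 4.64 on the log2 scale in WT and 5.55 in Pim1-/- cells. Its response was larger in Pim1-/- cells by 0.91 (95% interval 0.79 to 1.03, adjusted p = 2.91e-09), and by 1.29 under quantile normalization and 1.09 under the scaling to estimated fragments, past 2-fold.

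Irf2 was lower in Pim1-/- cells in both treatments. It was at 22.9, 22.9 and 23.7 FPKM in untreated WT against 12.1, 13.04 and 13.6 FPKM in Pim1-/- libraries, and at 84.6, 85.6 and 86.4 FPKM against 53.0, 54.8 and 61.2 FPKM with LPS. The log2 fold changes were −0.80 (adjusted p = 2.88e-09, limma) and −0.60 (adjusted p = 6.9e-08), both under the 2-fold threshold. The latter was −0.29 under quantile normalization and −0.31 per estimated fragment. LPS raised Irf2 by 1.84 in WT and 2.04 in Pim1-/- cells on the log2 scale, and the difference of 0.20 passed FDR with an adjusted p of 0.0316. That difference was 0.61 under quantile normalization and 0.38 per estimated fragment. The ratio of Irf1 to Irf2 was 1.47 ± 0.0424 in untreated WT and 1.04 ± 0.0291 in untreated Pim1-/- cells, and 10.2 ± 0.231 and 12.1 ± 0.940 with LPS (SD, n = 3 each). The ranges of the genotypes did not overlap in either treatment, with WT above Pim1-/- without LPS and below it with LPS.

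Irf5, which drives Il6, Il12b and Tnf in inflammatory macrophages, was the most abundant member without LPS in Pim1-/- cells and shared that place with Irf8 in WT cells. It was at 88.3, 84.6 and 86.0 FPKM in untreated WT and at 61.9, 58.4 and 64.3 FPKM in untreated Pim1-/- libraries, a log2 fold change of −0.48 (adjusted p = 1.28e-07, limma). With LPS the groups overlapped, at 203, 192 and 201 FPKM in WT and 190.2, 183 and 199 FPKM in Pim1-/- libraries. The difference with LPS was −0.06 (95% interval −0.15 to 0.04, adjusted p = 0.271), 0.20 under quantile normalization and 0.23 under the scaling to estimated fragments. LPS raised Irf5 on the log2 scale by 1.19 in WT and by 1.62 in Pim1-/- cells. These responses depended on the scaling, and were 0.11 and 0.84 under quantile normalization and 0.35 and 0.95 per estimated fragment. The difference between them was 0.43 (adjusted p = 3.33e-05).

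Irf8, a factor of the mononuclear phagocyte lineage, departed from the others. It was at 86.2, 82.4 and 83.5 FPKM in untreated WT and at 34.2, 34.1 and 36.9 FPKM in untreated Pim1-/- libraries. With LPS it was at 231, 219 and 227 FPKM in WT but at 57.4, 55.6 and 62.3 FPKM in Pim1-/- libraries. Every Pim1-/- library with LPS thus lay below every untreated WT library. The log2 fold change between genotypes was −1.24 (standard error 0.05, adjusted p = 3.2e-12, limma) without treatment and −1.93 (standard error 0.05, 95% interval −2.03 to −1.83, adjusted p = 2.52e-14) with LPS. Its mean with LPS in Pim1-/- cells was 25.9% of WT, close to the 22.9% of Irf7 without treatment. Over all alternatives run the second lay between −1.98 and −1.57 and stayed called. LPS raised Irf8 by 1.41 on the log2 scale in WT and by 0.72 in Pim1-/- cells.

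Of the 8 members, Irf8 alone had a lower LPS response in Pim1-/- cells, with a difference of −0.69 (standard error 0.07, 95% interval −0.84 to −0.55, adjusted p = 3.83e-07, limma). For the other 7 the response in Pim1-/- cells lay above that in WT at an FDR under 0.1, which for Irf3 and Irf4 means a smaller or absent decrease, and over all genes it lay below in 35.8% and above in 32.7%. Irf4 entered the fit only through the untreated WT libraries, which favours a positive difference, so it lends no support to this count. The Irf8 difference kept its sign in every alternative, and was −0.18 (adjusted p = 0.0486) under quantile normalization and −0.51 under the scaling to estimated fragments. Per estimated fragment the LPS change of Irf8 was 0.57 in WT and 0.06 (adjusted p = 0.248) in Pim1-/- cells. Relative to the median of all genes in that scaling, these are 1.25 and 0.64.

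Irf4, the factor of plasma cells and of alternatively activated macrophages, was the least abundant member in every group. It was at 1.44, 1.54 and 1.72 FPKM in untreated WT and 0.553, 0.484 and 0.532 FPKM in untreated Pim1-/- libraries. With LPS it was at 0.162, 0.139 and 0.117 FPKM in WT and 0.437, 0.432 and 0.360 FPKM in Pim1-/- libraries. Its order between genotypes was therefore turned around, with Pim1-/- at 33.3% of WT without treatment and at 293.4% of WT with LPS. The estimated fragments behind these values were 240 to 332 and 85.7 to 112 per library without LPS, and 10.8 to 16.5 in WT and 44.9 to 62.1 in Pim1-/- libraries with LPS. On the log2(FPKM + 1) scale, which compresses such low values, the differences between genotypes were −0.75 (adjusted p = 9.34e-09, limma) and 0.31 (adjusted p = 0.000137), and with a pseudocount of 0.1 they were −1.42 and 1.09. With LPS Irf4 fell by 1.17 on that scale in WT cells, while the change in Pim1-/- cells was −0.11 (adjusted p = 0.0762). The difference in response was 1.06 (standard error 0.08, adjusted p = 2.17e-08). Irf4 entered the fit only through the untreated WT libraries, where it was high, which favours a decrease in WT and a positive difference, so its values are a description. The other 7 members were not called for the difference in response, in which 2.24% of all genes were called higher and 4.43% lower.

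**Figure D3:**
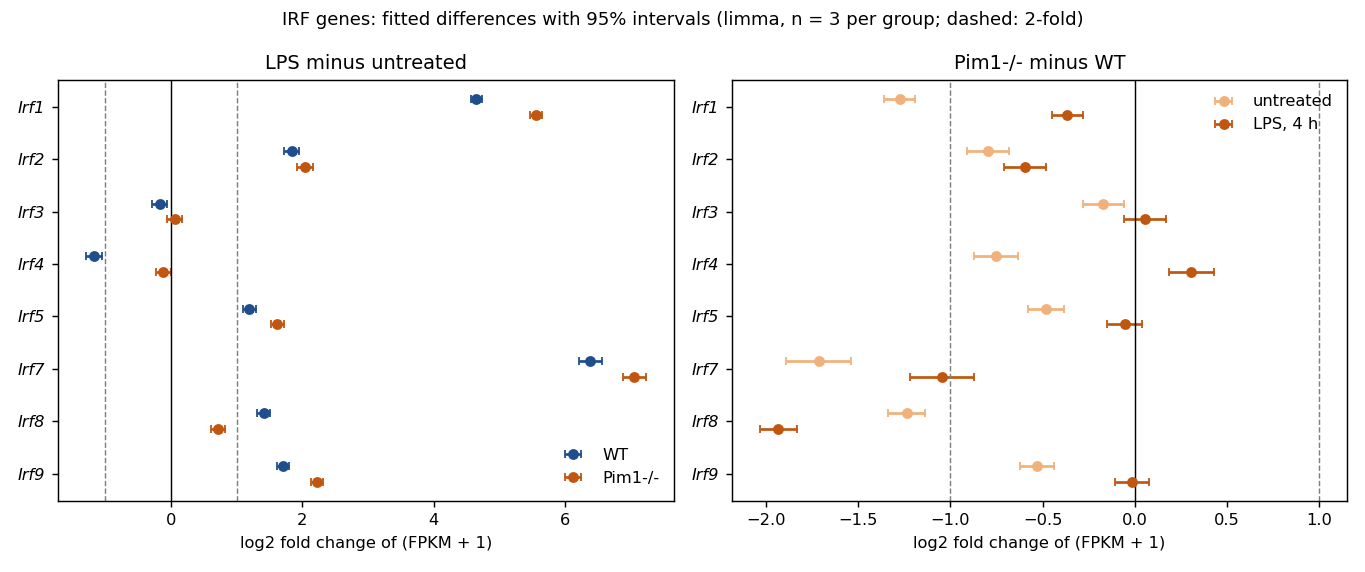
Points are fitted log2 fold changes of FPKM + 1 with 95% intervals from limma (n = 3 per group), for LPS against no treatment in each genotype on the left and for Pim1-/- against WT in each treatment on the right, and dashed lines mark 2-fold. In the left panel Irf8 is the gene whose Pim1-/- point lies clearly to the left of its WT point, and in the right panel Irf8 lies farthest from 0 with LPS, at −1.93.

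The scaling of the libraries bears on the LPS comparisons more than on the genotype comparisons without treatment. Scaling to estimated fragments moved the median log2 fold change of all genes to −0.67 for LPS in WT, −0.57 for LPS in Pim1-/- cells, 0.04 between genotypes without treatment and 0.17 with LPS. Relative to these medians, LPS changed Irf1 by 4.47, Irf2 by 1.68, Irf5 by 1.03, Irf7 by 6.21, Irf8 by 1.25 and Irf9 by 1.55 in WT cells. In the same terms the genotype difference with LPS was −1.81 for Irf8, −0.93 for Irf7, −0.48 for Irf2 and −0.25 for Irf1.

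**Figure D4:**
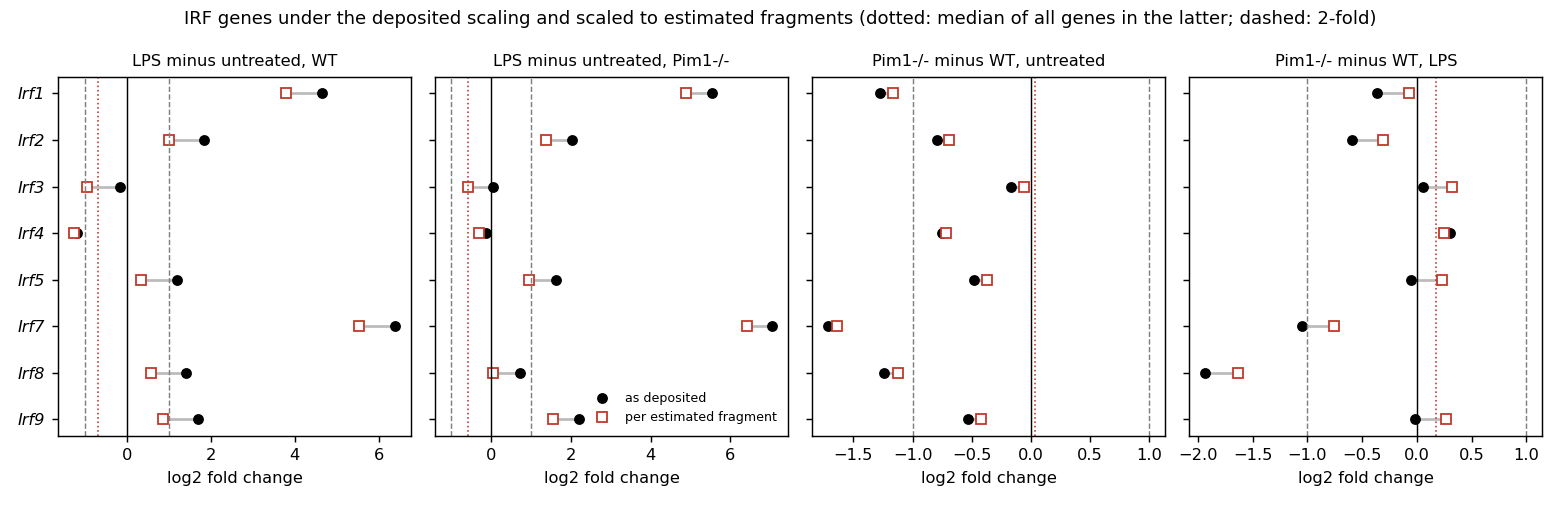
For 4 comparisons, filled circles give each gene's log2 fold change of FPKM + 1 with the deposited scaling and open squares the value after scaling to estimated fragments, with the median of all genes in the latter dotted and 2-fold dashed. The squares lie to the left of the circles for LPS and, apart from Irf4, to the right of them for genotype with LPS, where Irf5 and Irf9 cross 0.

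The upstream machinery that activates IRFs was listed as 18 genes of adaptors and kinases, all of them tested. Counts in this and the following lists stand beside these shares of all genes with the deposited scaling. Between genotypes at an FDR under 0.1, 44.2% were lower and 34.6% higher untreated, and 43.4% and 37.6% with LPS. Called were 3.37% lower and 4.4% higher untreated, and 5.15% and 3.51% with LPS. LPS called 20.1% higher and 14.7% lower in WT, and 14.6% and 10.4% in Pim1-/- cells. Of the 18 genes, 14 fell below WT and 3 lay above it in untreated Pim1-/- cells at an FDR under 0.1, with a median log2 fold change of −0.50. Ikbke, encoding IKKε, was the single one called, at 25.4 ± 1.93 FPKM in WT against 9.06 ± 0.365 FPKM (SD, n = 3 each), for which the log2 fold change was −1.39. Slc15a4, Ticam2 (TRAM) and Ticam1 (TRIF) followed with −0.76, −0.75 and −0.73. With LPS 14 were lower, 0 higher and 0 called, with a median of −0.32, but per estimated fragment 7 were lower and 5 higher with a median of −0.04. Tbk1 was at 94.3 ± 3.26 FPKM in WT against 63.9 ± 0.376 FPKM in Pim1-/- cells with LPS, a log2 fold change of −0.55 (−0.26 per estimated fragment). LPS itself called 7 of the list higher in each genotype, among them Ikbke, Tank, Myd88 and Azi2 in WT, and called Mavs lower in both and Irak4 lower in WT. Per estimated fragment 4 were called higher and 6 lower in WT, where the median went from 0.49 to −0.24, and 4 higher and 3 lower in Pim1-/- cells.

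Interferon and its signalling chain were listed as 10 genes. Ifnb1, encoding interferon-β and itself a target of IRF3 and IRF7, was listed at 0 in all 6 untreated libraries. With LPS it was at 8.50 ± 0.906 FPKM in WT against 15.5 ± 1.27 FPKM in Pim1-/- libraries (SD, n = 3 each), higher in the latter with a log2 fold change of 0.80 (adjusted p = 3.86e-08, limma, standard error 0.07) and 1.02 per estimated fragment. Of the other 9 genes 8 were lower with LPS and 3 called, the kinase gene Jak1 with −1.30, the receptor gene Ifnar1 with −1.26 and Stat2 with −1.04. Ifngr1 was higher by 0.09. Under quantile normalization 0 of the list were called and its median moved from −0.73 to −0.43, and per estimated fragment Jak1 alone was called lower while Ifnb1 was called higher. Without treatment 7 of the 10 were lower, and Stat2, the partner of IRF9 in ISGF3, was called with −1.06.

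The partners and cofactors of IRFs numbered 11. Spi1, encoding the PU.1 protein with which IRF4 and IRF8 bind DNA, was at 187.6 ± 0.868 FPKM in WT against 123.8 ± 11.3 FPKM in Pim1-/- cells without treatment and at 801.1 ± 27.1 and 365.2 ± 18.7 FPKM with LPS (SD, n = 3 each). Ikzf1, encoding the zinc-finger factor Ikaros, was at 200.9 ± 3.39 FPKM in WT against 71.3 ± 3.82 FPKM in Pim1-/- cells with LPS. With LPS 4 of the 11 were called lower in Pim1-/- cells, Batf3 with −1.58, Ikzf1 with −1.48, Batf2 with −1.30 and Spi1 with −1.13, of which Spi1 was under 2-fold per estimated fragment (−0.84) and 2 were called under quantile normalization. Batf3 passed the filter on low values through the WT libraries alone. It therefore lends no support to the counts between genotypes in this list. The LPS responses of Spi1 and Ikzf1 were lower in Pim1-/- cells, with differences of −0.53 and −0.86 on the log2 scale. LPS lowered Irf2bp2, a corepressor that binds IRF2, with log2 fold changes of −4.07 in WT and −2.92 in Pim1-/- cells. Its mean went from 35.4 to 1.16 FPKM in WT and from 22.1 to 2.04 FPKM in Pim1-/- cells. Among LPS-treated cells Irf2bp2 was higher in Pim1-/- than in WT by 0.49, as was Irf2bpl by 0.13 (adjusted p = 0.0774, limma). Irf2bp2 had a difference in response of 1.15, a smaller fall in Pim1-/- cells and the single call for that comparison in this list. The difference was also above 0 for Irf2bp1 with 0.33 (adjusted p = 0.0141, limma), again a smaller fall. For Irf2bpl it was −0.29 (adjusted p = 0.0149, limma), a larger fall in Pim1-/- cells. Of the 11 genes, 2 had a higher and 6 a lower response in Pim1-/- cells at an FDR under 0.1, beside 32.7% and 35.8% of all genes. In untreated cells 9 were lower, 1 higher (Irf2bpl, 0.42) and 0 called.

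Genes driven by IRF3, IRF7 and ISGF3 were listed as 10, with Ifnb1 among them. In untreated Pim1-/- cells 8 were called lower and the median log2 fold change of the list was −1.53. Ifit3 had −2.54, from 8.50 ± 0.604 FPKM in WT to 0.635 ± 0.179 FPKM, Cxcl10 had −2.07 and Ifit1 had −1.98. With LPS 9 were lower but Mx1 alone was called, at 896.5 ± 12.98 FPKM in WT against 275.9 ± 5.49 FPKM in Pim1-/- cells, and the median was −0.37. Per estimated fragment that count was 4 lower with a median of −0.08. The LPS response of 5 was called larger in Pim1-/- cells (Ifit1, Ifit2, Ifit3, Rsad2 and Cxcl10), all of them genes that were called lower without treatment.

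Genes driven by IRF1 numbered 9. With LPS 8 were lower in Pim1-/- cells and 2 called, Cxcl9 with −2.09 and Il27 with −1.15 (−0.86 per estimated fragment, under 2-fold). Ciita, the master regulator of MHC class II genes, was higher by 0.47 with LPS and called lower, with −1.22, without it, at 1.94 ± 0.129 FPKM in untreated WT and 0.260 ± 0.0690 FPKM in untreated Pim1-/- cells. Of 5 genes driven by IRF5, 0 were called between genotypes in either treatment. Without LPS, Il6, Il12a, Il12b and Il23a were near or at 0 in both genotypes, with group means of at most 0.0635 FPKM. A decrease of these genes in untreated Pim1-/- cells could therefore not have been called. Tnf was the one measurable without LPS, and its untreated group means were 5.15 (Pim1-/-) and 5.09 (WT) FPKM. Il6 and Tnf had log2 fold changes of 0.08 each with LPS and did not pass, Il12b and Il23a were higher with 0.26 and 0.44, and Il12a was lower with −0.87. Il6 and Tnf passed FDR as higher under quantile normalization (0.18 and 0.30) and per estimated fragment (0.38 and 0.37). Of 6 genes tied to IRF4 in alternative activation, 4 were expressed enough to be tested. Ccl17 was called higher in Pim1-/- cells with LPS, at 244.0 ± 18.6 FPKM against 74.9 ± 1.71 FPKM in WT, and the mannose receptor gene Mrc1 was called lower without LPS, at 31.4 ± 1.62 FPKM against 88.2 ± 5.86 FPKM.

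**Figure D5:**
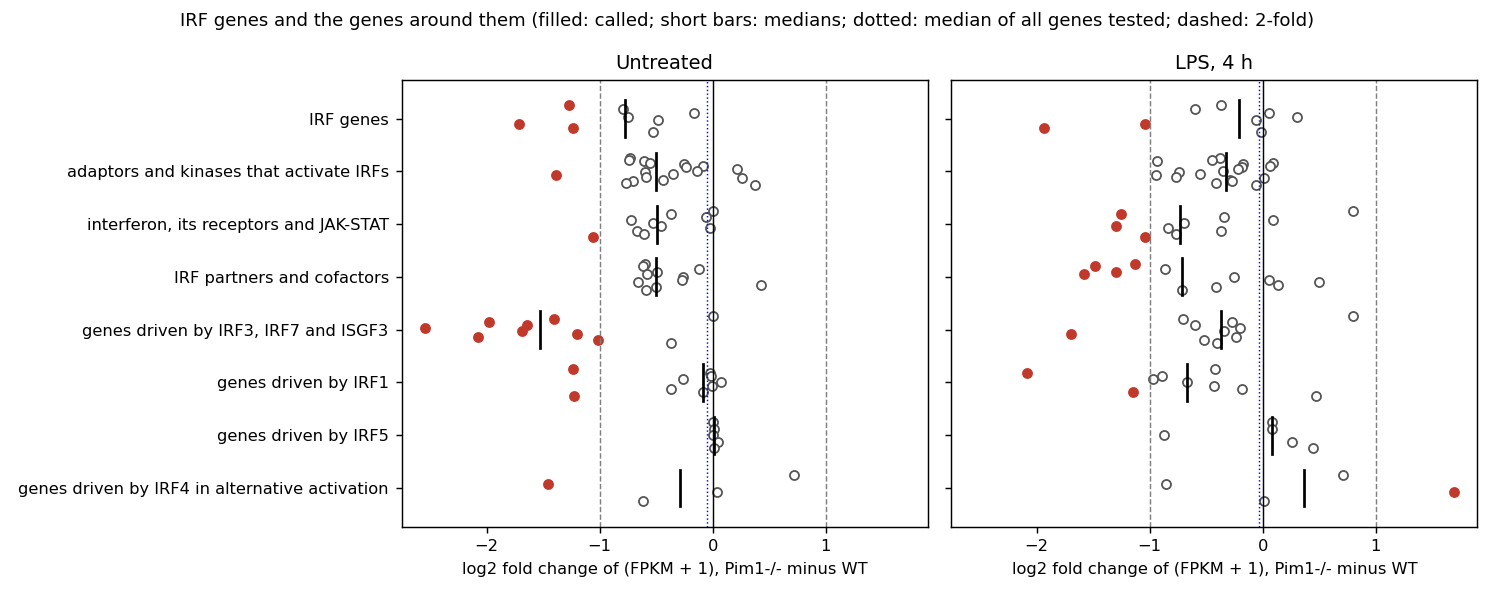
Each point is 1 gene's log2 fold change of FPKM + 1 in Pim1-/- against WT, without treatment on the left and with LPS on the right, for the 8 IRF genes and the 7 lists around them, with called genes filled, list medians as short bars, the median of all genes dotted and 2-fold dashed. The genes driven by IRF3, IRF7 and ISGF3 have a median of −1.53 without treatment and −0.37 with LPS.

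Among 6465 genes with at least 10 FPKM in a group, those whose 4 group means ran most like each member were found by the root mean square difference of the centred means on log2(FPKM + 1). For Irf8 these were Tle3 (difference 0.146) and Prex1 (0.148), the poorest matches of any member. Tle3, which encodes a corepressor, was at 53.3 FPKM in WT against 10.6 FPKM in Pim1-/- cells with LPS. Irf7 was closest to Fam26f (0.0858) and the nucleic acid sensor gene Zbp1 (0.113), and Irf1 to Gadd45b (0.0985) and Parp14 (0.133). Irf2 ran with the tyrosine kinase gene Syk (0.0492) and with Tcf4, Irf5 with Itpripl2 and Pip5k1a, and Irf9 with Ankrd33b and BC051226. The nearest genes to Irf3 and Irf4 were Hmga1 and Gpnmb, and Bckdha and Dcaf8. This likeness rests on 4 group means of 12 shared libraries and is a description.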

How the data were processed

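RNA was measured in 12 libraries of BMDMs (4 groups of 3), prepared with a stranded mRNA kit. Per the labels and methods, the authors trimmed reads with cutadapt 1.18, mapped them with TopHat2 2.0.13 and computed expression with Cuffdiff 2.2.1. The processing notes name the mouse build mm10, whereas the methods name rat rn5. Of 23997 symbols 22694 matched mouse GENCODE M21 (94.6%), and the sources used here do not give the annotation. The deposited values carry no unit and were read as FPKM, as Cuffdiff writes them, with the library scaling left as the authors deposited it.

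Values were fitted as log2(FPKM + 1) in limma 3.58.1 under R 4.3.3, using 4 group means and a mean-variance trend, over 10581 genes, with Benjamini-Hochberg adjustment over all of them. The methods' thresholds (more than 2-fold, p under 0.05, FDR under 0.1) were used in both directions. The fit was tested on simulated data. Depth was estimated from 367 single-transcript genes of at least 1500 bases and values up to 0.3 FPKM, of which 79.6% of 1878 lay within 0.15 of a whole multiple of 1 fragment, a tolerance that spans 30% of the width. Fragments per gene used the longest coding transcript. Python 3.11.15 with numpy 2.4.6 and pandas 2.3.3 was used for tables, and matplotlib 3.10.9 for drawing.

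Alternatives were a pseudocount of 0.1, quantile or median-ratio scaling, no filter or one of 5 FPKM, the compared groups only, a replicate block, no trend, an FDR under 0.05 with no fold threshold and leaving out each library. Scaling to estimated fragments, and keeping Irf4 in the test when an untreated WT library was left out, were added after the data were seen. The family members, the gene lists and the tests were chosen with earlier results of these data known. Genes named are the 8 members, Pim1, genes of the lists (up to 4 with the largest change in a comparison, and those a role needs) and the 2 nearest genes to each member. Same-numbered replicates correlated in their deviations from group means, over 3646 genes, at 0.326 to 0.456 between untreated genotypes and at 0.426 to 0.683 between treatments in Pim1-/- cells. These correlations were −0.103 to 0.191 between treatments in WT and 0.0203 to 0.366 between genotypes with LPS. Replicates with different numbers were not compared, so whether the numbers mark pairs or shared handling was not tested. The main fit used no pairing. Proteins of the members were not analysed here.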

Additional observations from a re-analysis of the deposited data

Results flagged for a closer look

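The fitted LPS response of Irf4 differed between genotypes. Irf4 entered the fit only through the 3 untreated WT libraries, where it was high, so that a WT decrease and a positive difference were favoured by the filter, and the values are a description. On the log2(FPKM + 1) scale the response in Pim1-/- cells minus that in WT cells was 1.06 (standard error 0.08, 95% interval 0.89 to 1.23, adjusted p = 2.17e-08, limma). It was 1.02 to 1.10 without any single untreated WT library and with Irf4 kept in the test, 2.51 with a pseudocount of 0.1, and 0.96 per estimated fragment, where it no longer passed 2-fold. The WT side of the difference rests on 10.8 to 16.5 estimated fragments per library with LPS. The macrophage and cell cycle lists moved with genotype in the same libraries, and their part in this difference was not tested.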

How the results depend on the processing

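Of 772 values of single members under the alternatives set out at the start, 759 kept their direction and their side of the threshold. Scaling to estimated fragments, chosen after seeing the data, left 4 members called for LPS in WT (7 with the deposited values) and 1 between genotypes with LPS (2), as did quantile normalization with 1. For the difference in LPS response, 1 member was called with the deposited values, 2 with a pseudocount of 0.1, 3 under quantile normalization and 0 with the filter of 5 FPKM. Leaving out each library gave 0 to 1, with 0 without WT_0h replicate 1, 2 or 3, because Irf4 then fell under the filter and 7 members were tested. With an FDR under 0.05 and no fold threshold, 8 members passed between untreated genotypes (3 called), 5 with LPS and 8 for the difference in response. The share of all genes was not taken at this rule. At an FDR under 0.1, 44.2% of all genes were lower and 34.6% higher between untreated genotypes. The shares were 43.4% and 37.6% with LPS and 35.8% and 32.7% for the difference in response, so passing was common. Irf4, which entered through the untreated WT libraries alone, is in each count and lends it no support.

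Signs turned for Irf3 with LPS in Pim1-/- cells (−0.20 under quantile normalization, −0.57 per estimated fragment), for Irf5 between genotypes with LPS (0.20 and 0.23) and for Irf9 there (0.23 and 0.27, and −0.051 to 0.021 when KO_4h replicates were left out in turn, above 0 without replicate 3). None of these differences was called with the deposited values. The calls of Irf5 and Irf8 for LPS in WT were lost under quantile normalization (0.11 and 0.34) and per estimated fragment (0.35 and 0.57), those of Irf9 in WT (0.87) and of Irf4 for the difference in response (0.96) per estimated fragment, and that of Irf7 between genotypes with LPS under both (−0.79 and −0.75). Irf5 with LPS in Pim1-/- cells was at 0.84 and 0.95 under the same scalings. The cause was not tested.

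With the replicate block, 7, 5, 3, 2 and 1 members were called in the 5 comparisons, the counts without it, and it changed no call.

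Precision is limited by 3 libraries per group of unnamed origin, by depth for Irf4, and by values whose library scaling is unknown.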
